A study of Mus musculus with 17 samples.

Results

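The Wnt pathway was examined through 54 genes, of 22253 in the table: every listed Wnt, Frizzled (Fzd), secreted frizzled-related protein (Sfrp), Dickkopf (Dkk) and R-spondin (Rspo) gene with a numbered symbol, together with Wif1, Wls, Porcn, Notum, Lrp5, Lrp6, Axin1, Axin2, Ctnnb1, Lef1, Tcf7, Tcf7l1 and Tcf7l2. Frzb, which is the gene Sfrp3 under another symbol, was thus not a member and was read in a separate list. The 54 genes were taken by a rule on gene symbols that used no measured value, although earlier results of these data were known. They comprised 19 ligands, 2 proteins of ligand processing, 10 receptors, 2 co-receptors, 10 secreted inhibitors, 4 agonists, beta-catenin with 2 scaffold proteins, and 4 TCF/LEF factors. RNA-seq was done on 17 libraries of retinal pigment epithelium (RPE) from Serpine3GFP/+ mice aged 2 months on a C57BL6/J background, each library holding a pool of 10 to 15 hand-picked cells as the labels give it. All animals, including those of the control groups, carried 1 Serpine3 allele with GFP inserted after the start codon in exon 2, and no treatment is given. GFP+-RPE (n = 6) came from the peripheral part of the eyecup and was picked by its fluorescence. Peripheral GFP–-RPE (n = 5) came from that part without fluorescence, and central GFP–-RPE (n = 6) came from the central part. Position within the peripheral part is not given for either group. The animals are called mouse 1 to mouse 7, and mouse 1 stands for 2 pooled animals. Mice 1, 2, 4, 5 and 7 gave all 3 groups, mouse 3 gave only GFP+-RPE and mouse 6 gave only central GFP–-RPE.

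Wnt proteins are secreted lipid-modified signals. Porcn attaches the lipid, Wls carries the ligand to the cell surface, and Frizzled receptors with the co-receptors Lrp5 and Lrp6 receive it, whereupon beta-catenin escapes a destruction complex built on Axin and acts with TCF/LEF factors on target genes. Secreted frizzled-related proteins, most Dickkopf proteins and Wif1 hold the signal down, and R-spondins raise it. In the developing eye, Wnt signalling is known for its part in forming the RPE and the margin of the optic cup, from which the ciliary body and iris arise.

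Serpine3, the labelled gene, had 107 to 576 counts in GFP+-RPE, 0 to 5 in peripheral GFP–-RPE and 0 in each central library. Total counts per library ran from 9896118 to 22467079, so that 3 counts, the most that a count of 0 allows, equalled 0.116 to 0.554 CPM (counts scaled to a common library total with TMM). Of 15 RPE identity genes, 14 had a mean of at least 10 counts in each group, whereas Best1 stayed at 0 to 2 counts in every library. Mitochondrial genes took 0.710% to 17.2% of the counts in GFP+-RPE, 12.5% to 30.4% in peripheral GFP–-RPE and 13.7% to 47.3% in central GFP–-RPE. The central libraries of mice 4, 5 and 7 stood apart, with 5392 to 6681 genes at 10 or more counts against 7966 to 10543 in the other libraries, and log2 fold changes against central GFP–-RPE that reached an unadjusted p under 0.05 are also given without them. In pooled cells, fewer cells using a gene and less RNA per cell cannot be told apart.

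The RPE of all 3 groups held abundant mRNA for secretion, reception and inhibition of Wnt signals and very little mRNA for Wnt ligands. Per kilobase of exon, the highest mean levels over the 17 libraries were those of Wls (57.6 CPM per kb), Ctnnb1 (33.9), Sfrp1 (25.1), Sfrp5 (23.5) and Fzd4 (18.3), whereas Wnt4, the ligand with the highest level, stood at 1.02. No count was found in any library for 8 members, namely Wnt3a, Wnt6, Wnt7a, Wnt8a, Wnt9b, Fzd9, Dkk4 and Notum. A further 9 never exceeded 3 counts, and 28 members had a mean of at least 10 counts in at least 1 group.

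**Figure D1:**
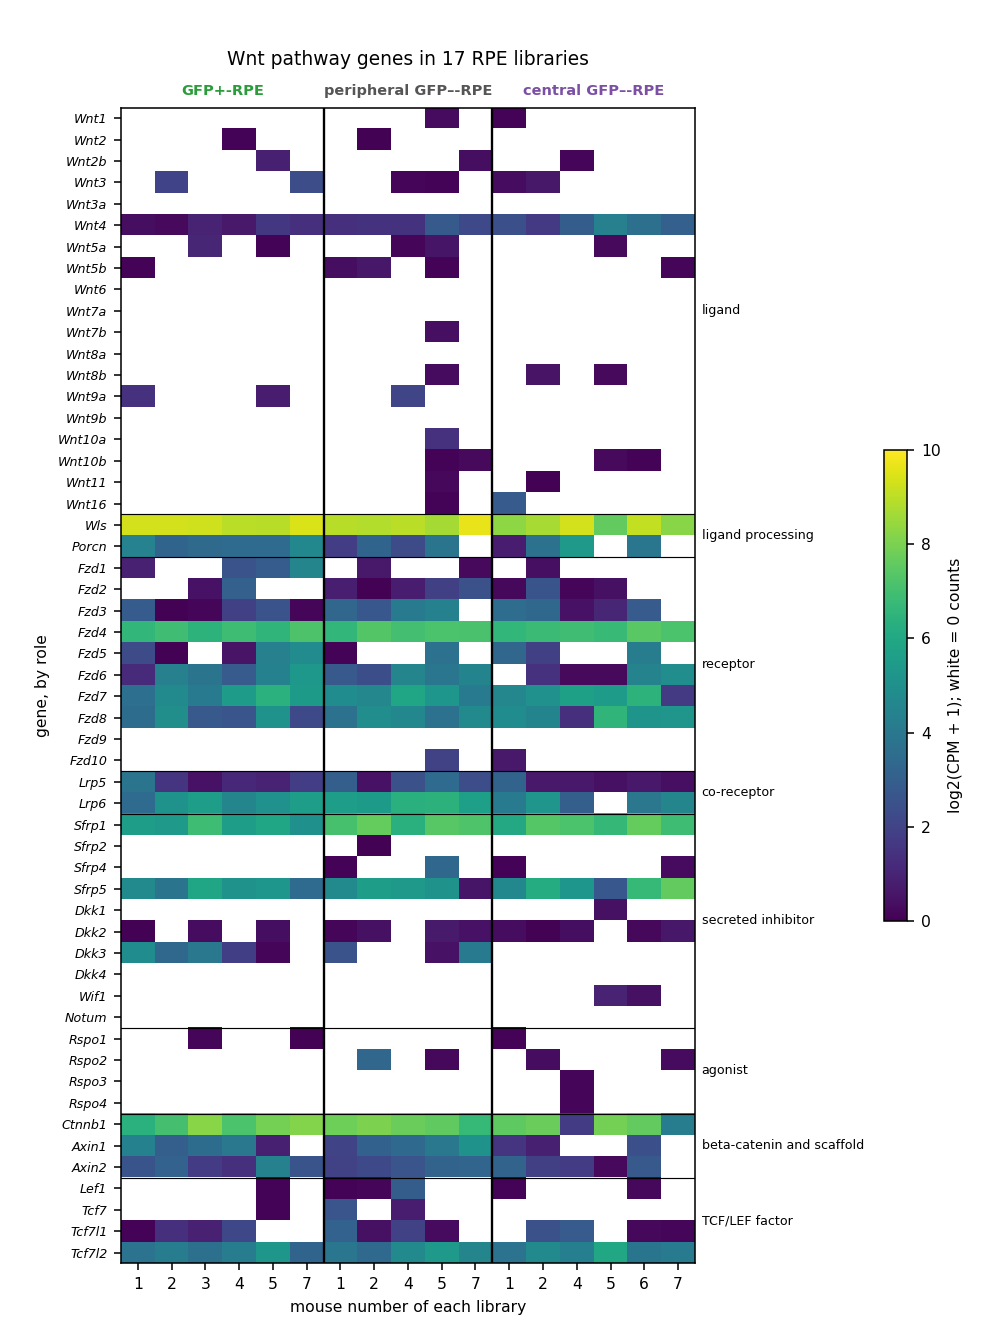
Level of each of the 54 genes (rows, by role) in each of the 17 libraries (columns, by group and mouse number), as log2(CPM + 1) by colour, with white for 0 counts. Wls, Fzd4, Sfrp1 and Wnt4 have counts in all 17 libraries, while most of the other ligand rows are white.

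Among the ligands, Wnt4 was the only one with counts in all 17 libraries. Wnt4, which is known for its part in kidney and female reproductive tract development, ranged in GFP+-RPE from 0.190 to 2.04 CPM with a median of 0.769. In peripheral GFP–-RPE it was 1.62 CPM in mouse 1, 1.76 in mouse 2, 1.73 in mouse 4, 6.04 in mouse 5 and 3.56 in mouse 7. In central GFP–-RPE it ranged from 2.25 to 19.6 CPM with a median of 7.05. Each GFP+-RPE library was therefore below each central library, and the peripheral GFP–-RPE libraries lay between and overlapped both. These levels rest on 4 to 34 counts per library in GFP+-RPE, 29 to 76 in peripheral GFP–-RPE and 41 to 160 in central GFP–-RPE.

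Wnt4 averaged 0.950 ± 0.742 CPM in GFP+-RPE (SD, n = 6) and 2.94 ± 1.91 CPM in peripheral GFP–-RPE (SD, n = 5). The central mean, 8.74 ± 6.24 CPM (SD, n = 6), was 9.19 times that of GFP+-RPE. In edgeR's quasi-likelihood fit of GFP+-RPE against central GFP–-RPE the log2 fold change was −3.33 (SE 1.21), with an unadjusted p = 0.0136 and a Benjamini-Hochberg adjusted p = 0.485 over all genes tested, so that Wnt4 did not pass the threshold for a call (a log2 fold change beyond 1 in either direction at an adjusted p under 0.01). The exact two-sided permutation test over libraries gave p = 0.00216, the smallest that 6 against 6 libraries allow, and an adjusted p = 0.208. DESeq2, used in place of edgeR, called Wnt4 lower in GFP+-RPE (log2 fold change −3.36, adjusted p = 0.000863). Without the central libraries of mice 4, 5 and 7 the groups still did not overlap, and edgeR's log2 fold change was −2.71 (unadjusted p = 0.0892, adjusted p = 0.818). Wnt4 was lower in GFP+-RPE than in its central counterpart in each of the 5 mice that gave both, and within both runs of animal numbers: 0.478 against 3.36 CPM for mice 1 to 3 and 1.42 against 11.4 CPM for mice 4 to 7.

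Against peripheral GFP–-RPE, the Wnt4 log2 fold change of GFP+-RPE was −1.64 (SE 1.09, edgeR's adjusted p rounding to 1.00), and peripheral against central GFP–-RPE gave −1.65 (SE 1.30, edgeR's adjusted p rounding to 1.00). In exact two-sided permutation tests p was 0.0260 and 0.0563 (adjusted p = 0.458 and 0.737). DESeq2 gave an unadjusted p = 0.0362 and 0.0167 (adjusted p = 0.508 and 0.446). In both comparisons Wnt4 was lower in the first group in each of the 5 mice. Wnt4 took a mean of 82.6% of the summed per-kilobase level of all ligands in central GFP–-RPE, 63.0% in peripheral GFP–-RPE and 39.1% in GFP+-RPE. By library these shares overlapped, at 40.2% to 99.2%, 29.0% to 86.8% and 4.38% to 81.1% in the same order.

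The other ligands appeared in few libraries. Wnt3 reached 86 counts in 1 GFP+-RPE library and was at 0 in 4 of the 6, Wnt9a reached 67 counts in 1 peripheral GFP–-RPE library, and Wnt16 had 76 counts in 1 central library and 0 in the other 5. Wnt5a, a ligand best known for signals that bypass beta-catenin, never exceeded 25 counts. Wnt10a, Wnt2b and Wnt5b had at most 21, 12 and 11 counts, Wnt8b had at most 8, Wnt7b at most 4, and Wnt1, Wnt2, Wnt10b and Wnt11 between 1 and 3.

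Wls, the carrier that Wnt ligands need to leave the cell, had the highest level of the members in each group. It ranged from 483 to 688 CPM in GFP+-RPE with a median of 626. The peripheral GFP–-RPE libraries held 481 CPM in mouse 1, 465 in mouse 2, 493 in mouse 4, 405 in mouse 5 and 820 in mouse 7. It ranged from 193 to 636 CPM in central GFP–-RPE with a median of 359. The GFP+-RPE libraries lay close together, while the other groups spread more widely and overlapped them.

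Wls averaged 594 ± 84.9 CPM in GFP+-RPE (SD, n = 6), 533 ± 164 CPM in peripheral GFP–-RPE (SD, n = 5) and 398 ± 166 CPM in the centre (SD, n = 6). GFP+-RPE against central GFP–-RPE gave a log2 fold change of 0.54 (SE 0.25, edgeR's unadjusted p = 0.0408 and adjusted p = 0.789), with GFP+-RPE higher in 4 of 5 mice. It was 0.50 without the central libraries of mice 4, 5 and 7 (unadjusted p = 0.0394). This difference did not pass the threshold, and its unadjusted p stayed under 0.05 in 5 of the 12 fits that left out 1 library. GFP+-RPE against peripheral GFP–-RPE gave 0.19 (SE 0.20, edgeR's adjusted p rounding to 1.00).

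Porcn, the enzyme that attaches the lipid to Wnt ligands, ranged from 8.35 to 24.5 CPM in GFP+-RPE with a median of 10.3. Its level in peripheral GFP–-RPE was 2.56 CPM in mouse 1, 8.29 in mouse 2, 4.00 in mouse 4, 13.5 in mouse 5 and 0 in mouse 7. In central GFP–-RPE it ranged from 0 to 40.9 CPM with a median of 6.45. Porcn thus had counts in each GFP+-RPE library, at least 135, and none in 1 peripheral and 2 central libraries. The log2 fold change of GFP+-RPE was 1.29 (SE 1.12) against peripheral GFP–-RPE and 0.34 (SE 1.36) against central GFP–-RPE, and neither passed edgeR's test.

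**Figure D2:**
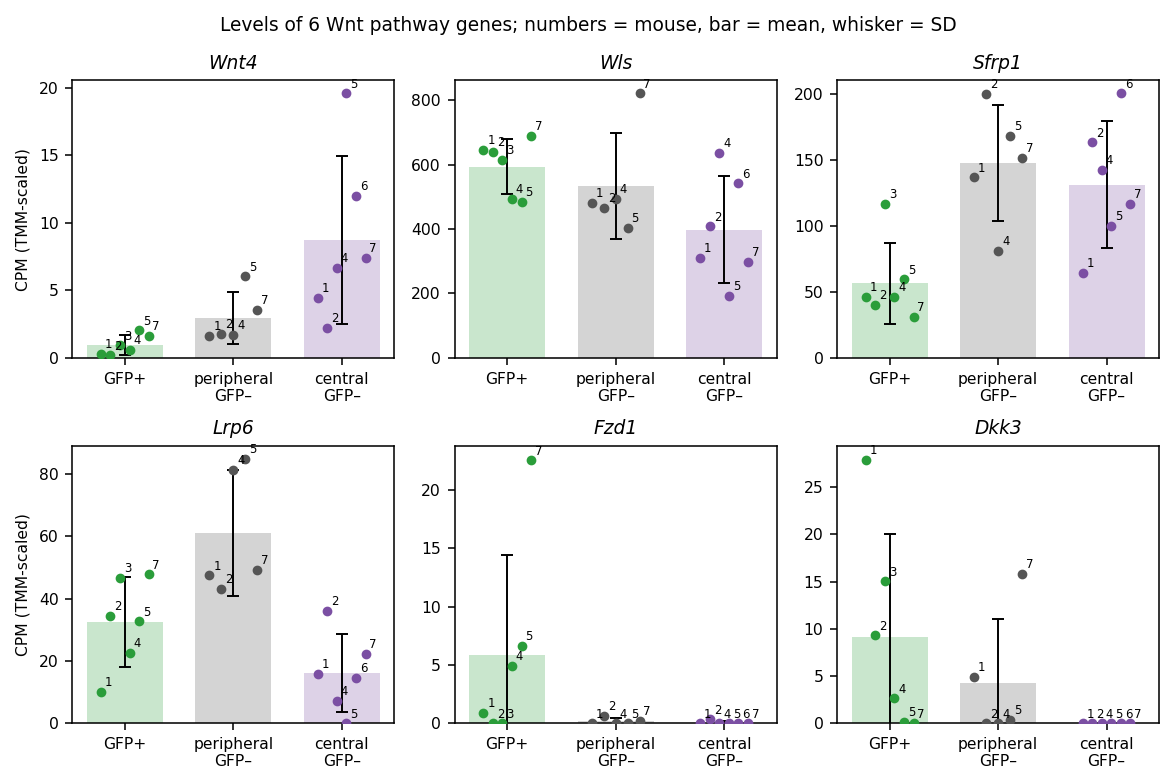
Level in CPM (TMM-scaled) of Wnt4, Wls, Sfrp1, Lrp6, Fzd1 and Dkk3 in each library of the 3 groups, with the mouse number beside each point, the mean as a bar and the SD as a whisker (cut at 0 where it would reach below). Wnt4 in GFP+-RPE lies below each central library, Lrp6 in peripheral GFP–-RPE lies above each central library, and Dkk3 is at 0 in all 6 central libraries.

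Among the 10 Frizzled receptors, Fzd4 had the highest mean share in each group. Fzd4, which also receives the ligand norrin in retinal vessels, took a mean of 52.7% of the summed per-kilobase level of the receptors in GFP+-RPE, 56.9% in peripheral GFP–-RPE and 52.6% in central GFP–-RPE. By library its shares ran from 29.4% to 71.4%, 45.0% to 67.6% and 38.5% to 63.3% in the same order. The highest share of Fzd7 in a GFP+-RPE library was 39.1%, and that of Fzd8 in a central library was 36.8%. Fzd4 ranged from 87.1 to 148 CPM in GFP+-RPE with a median of 108, and from 96.5 to 174 CPM in central GFP–-RPE with a median of 117. Its level in peripheral GFP–-RPE was 98.2 CPM in mouse 1, 161 in mouse 2, 128 in mouse 4, 142 in mouse 5 and 137 in mouse 7. The groups overlapped throughout, and the log2 fold changes were −0.25 (SE 0.28) in GFP+-RPE against central GFP–-RPE, −0.24 (SE 0.23) against peripheral GFP–-RPE and 0.02 (SE 0.31) for peripheral against central GFP–-RPE.

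Fzd7 followed, with a mean of 37.3 ± 25.5 CPM in GFP+-RPE (SD, n = 6), 33.0 ± 17.04 CPM in peripheral GFP–-RPE (SD, n = 5) and 40.2 ± 28.7 CPM in the central libraries (SD, n = 6). Fzd8 had means of 14.7, 20.8 and 35.6 CPM in the same order, and Fzd6, a receptor tied to planar cell polarity, 16.6, 13.7 and 8.71 CPM. Fzd3, also a polarity receptor, had means of 2.39, 10.0 and 4.62 CPM and Fzd5 means of 8.50, 2.57 and 4.88 CPM. Fzd2 stayed at means of 0.949 to 1.76 CPM, and Fzd10 had counts in 2 libraries with at most 36. Where tested, none of these receptors reached an unadjusted p under 0.05 in edgeR.

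Fzd1 was spread widely between the GFP+-RPE libraries. It ranged from 0 to 22.5 CPM in GFP+-RPE with a median of 2.90, with 472 counts in mouse 7, 94 in mouse 5, 65 in mouse 4, 23 in mouse 1 and 0 in mice 2 and 3. Peripheral GFP–-RPE held 0 counts in mice 1, 4 and 5, with 0.622 CPM in mouse 2 and 0.198 CPM in mouse 7. In central GFP–-RPE it was at 0 in 5 libraries and at 0.330 CPM in mouse 2. GFP+-RPE was above the other groups in 4 of 6 libraries and overlapped them in the remaining 2.

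GFP+-RPE against peripheral GFP–-RPE gave a log2 fold change of 5.11 for Fzd1 (SE 2.20, edgeR's unadjusted p = 0.0336 and adjusted p = 0.808). The difference was seen within only 1 run of animal numbers, with 11.3 against 0.0659 CPM for mice 4 to 7 and 0.297 against 0.311 CPM for mice 1 to 3, and with the run in the fit the unadjusted p was 0.223. Against central GFP–-RPE, edgeR's filter on low counts removed Fzd1, the exact two-sided permutation test gave p = 0.0606 (adjusted p = 0.475), and DESeq2 gave a log2 fold change of 6.498 (adjusted p = 0.0503). Neither passed its threshold.

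The co-receptor Lrp6 was highest in peripheral GFP–-RPE. There it was 47.5 CPM in mouse 1, 43.2 in mouse 2, 81.5 in mouse 4, 84.9 in mouse 5 and 49.1 in mouse 7. It ranged from 10.2 to 47.8 CPM in GFP+-RPE with a median of 33.6, and from 0 to 36.2 CPM in central GFP–-RPE with a median of 15.3. Each peripheral GFP–-RPE library was above each central library, while GFP+-RPE overlapped both. The library at 0 was the central library of mouse 5, which had the fewest genes of the 17.

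Lrp6 averaged 61.2 ± 20.2 CPM (SD, n = 5) in peripheral GFP–-RPE, 3.82 times the central mean of 16.04 ± 12.5 CPM (SD, n = 6). The log2 fold change between them was 1.90 (SE 0.94, edgeR's unadjusted p = 0.0592, adjusted p rounding to 1.00), and the exact two-sided permutation test gave p = 0.00216, the smallest that 5 against 6 libraries allow, with an adjusted p = 0.465. Without the central libraries of mice 4, 5 and 7 the ranges still did not overlap and the log2 fold change was 1.43 (edgeR's unadjusted p = 0.0191). Lrp6 was higher in peripheral than in central GFP–-RPE in each of the 5 mice. GFP+-RPE, at 32.4 ± 14.4 CPM (SD, n = 6), differed from peripheral GFP–-RPE by a log2 fold change of −0.90 (SE 0.42, edgeR's unadjusted p = 0.0470 and adjusted p = 0.892), again in each of the 5 mice. Lrp5, the related co-receptor, had means of 3.40, 5.33 and 1.76 CPM in GFP+-RPE, peripheral and central GFP–-RPE.

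The RefSeq windows before the transcription start are shown for Wnt4, Wls and Fzd1, a ligand, its carrier and a receptor that each reached an unadjusted p under 0.05 in 1 comparison. Of the 54 genes, 35 were matched by symbol to the table of such windows (RefSeq, GRCm38.p6), with 44 windows in all since some genes have several starts. Sfrp1 and Lrp6 had no entry. Each window was searched over 250 bases on both strands for CTTTGA, a core of TCF/LEF sites. The E-boxes CACGTG and CATGTG, both kinds being bound by the RPE factor Mitf, were searched in the same way. Matches are in capitals. Bases inside the GENCODE M21 gene are left out.
Wnt4, chr4:137277385-137277488, plus strand: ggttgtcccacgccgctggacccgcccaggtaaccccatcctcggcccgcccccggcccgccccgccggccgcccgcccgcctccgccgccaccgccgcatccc
Wls, chr3:159839400-159839649, plus strand: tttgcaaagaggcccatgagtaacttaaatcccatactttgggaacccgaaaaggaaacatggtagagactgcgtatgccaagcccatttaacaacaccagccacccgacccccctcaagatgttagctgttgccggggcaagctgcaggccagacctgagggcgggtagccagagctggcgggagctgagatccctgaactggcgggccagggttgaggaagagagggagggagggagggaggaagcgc
Fzd1, chr5:4758217-4758466, minus strand: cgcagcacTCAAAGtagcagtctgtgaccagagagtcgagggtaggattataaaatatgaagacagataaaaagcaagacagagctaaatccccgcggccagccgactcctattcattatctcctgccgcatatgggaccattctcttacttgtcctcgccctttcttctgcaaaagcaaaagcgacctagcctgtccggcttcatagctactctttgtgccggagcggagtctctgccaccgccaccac

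The Fzd1 window held 1 match, in the reverse orientation TCAAAG, which began 242 bases before the start, and the windows of Wnt4 and Wls held none. CTTTGA was present in 5 of the 44 windows (those of Dkk1, Fzd1, Lef1, Wnt11 and Wnt5b) and in 13.8% of all 32841 windows of this length. CACGTG was present in 5 windows (Fzd9, Lef1, Rspo4, Wif1 and Wnt9a) against 6.02% of all windows, and CATGTG in 0 against 12.3%. The windows of the pathway had a median GC content of 67.4%, against 52.4% over all windows, and that of the whole 250 bases before Wnt4 was 85.2%.

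The secreted inhibitors were mostly Sfrp1 and Sfrp5, which bind Wnt ligands outside the cell. Dkk3 took a mean of 8.35% of the summed per-kilobase level of the inhibitors in GFP+-RPE (0% to 25.5% by library). In peripheral GFP–-RPE its share was 3.03% (0% to 11.8% by library). Sfrp1 ranged from 31.0 to 117 CPM in GFP+-RPE with a median of 46.4. The peripheral GFP–-RPE libraries held 137 CPM in mouse 1, 200.0 in mouse 2, 81.4 in mouse 4, 168 in mouse 5 and 152 in mouse 7. In central GFP–-RPE it ranged from 64.5 to 201 CPM with a median of 129.7. The GFP+-RPE libraries of mice 1, 2, 4, 5 and 7 lay below each library of the other groups, whereas that of mouse 3 lay among them.

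Sfrp1 averaged 56.7 ± 30.8 CPM in GFP+-RPE (SD, n = 6), 148 ± 43.8 CPM in peripheral GFP–-RPE (SD, n = 5) and 131 ± 48.1 CPM in the centre (SD, n = 6). GFP+-RPE differed from peripheral GFP–-RPE by a log2 fold change of −1.37 (SE 0.34, edgeR's unadjusted p = 0.000983 and adjusted p = 0.368) and from central GFP–-RPE by −1.26 (SE 0.38, edgeR's unadjusted p = 0.00418 and adjusted p = 0.245). The exact two-sided permutation test gave p = 0.00649 and p = 0.0108, with adjusted p = 0.361 and p = 0.262. Neither difference passed the threshold, although in both the unadjusted p of edgeR stayed under 0.05 in each fit that left out 1 library, and Sfrp1 was lower in GFP+-RPE in each of the 5 mice that gave both groups. Without the central libraries of mice 4, 5 and 7 the second log2 fold change was −1.32 (unadjusted p = 0.00682). Peripheral against central GFP–-RPE gave 0.13 (SE 0.35), with overlapping ranges.

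Sfrp5 was spread more widely. It ranged from 10.3 to 57.4 CPM in GFP+-RPE with a median of 30.2, and from 5.54 to 191 CPM in central GFP–-RPE with a median of 54.8. The peripheral GFP–-RPE libraries held 26.2 CPM in mouse 1, 48.2 in mouse 2, 40.1 in mouse 4, 32.9 in mouse 5 and 0.494 in mouse 7. The ranges overlapped in each comparison, with a log2 fold change of −1.32 (SE 0.69, edgeR's unadjusted p = 0.0733) where GFP+-RPE was set against the centre, or −1.14 without the central libraries of mice 4, 5 and 7.

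Dkk3, a divergent Dickkopf protein, was described after its values were seen, since all 6 central libraries were at 0. In GFP+-RPE it ranged from 0 to 27.9 CPM with a median of 5.97, with 718 counts in mouse 1, 338 in mouse 3, 196 in mouse 2, 35 in mouse 4, 2 in mouse 5 and 0 in mouse 7. In peripheral GFP–-RPE it was 4.90 CPM in mouse 1, 0.397 in mouse 5, 15.8 in mouse 7 and 0 in mice 2 and 4. The high GFP+-RPE libraries were those of mice 1, 2 and 3, while those of mice 4 and 5 were low and that of mouse 7 was at 0 like each central library.

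Against the central floor of 3 counts per library, 0.305 CPM on average, the GFP+-RPE mean of Dkk3 was at least 30.1-fold higher and that of peripheral GFP–-RPE at least 13.9-fold higher. Each bound leans on 1 library: without mouse 1 that of GFP+-RPE was 17.8-fold, and without mouse 7 that of peripheral GFP–-RPE was 4.35-fold. The edgeR filter removed Dkk3 from both fits with central GFP–-RPE, and the exact two-sided permutation test gave p = 0.0152 (adjusted p = 0.281) for GFP+-RPE and p = 0.0606 (adjusted p = 0.737) for peripheral GFP–-RPE. DESeq2 called it higher in the GFP+-RPE libraries than in the central ones (adjusted p = 0.000594). With the central libraries of mice 4, 5 and 7 left out, Dkk3 passed edgeR's filter through its GFP+-RPE counts alone. Each central library was at 0, and both the gene and the libraries left out were chosen after seeing the values. No support is drawn from that fit, nor from the DESeq2 call or the permutation tests of Dkk3 against central GFP–-RPE. Within mice 1 to 3, Dkk3 averaged 17.4 CPM in GFP+-RPE against 2.45 CPM in peripheral GFP–-RPE. Within mice 4 to 7 the order was reversed, at 0.928 against 5.40 CPM. GFP+-RPE against peripheral GFP–-RPE gave a log2 fold change of 1.15 (SE 1.82, edgeR's unadjusted p = 0.536). With the run as a covariate it was −0.56. Dkk3 is also a marker of Mueller glia. Of that list of 12 genes, 5 were at 0 in every GFP+-RPE library, Gfap and Slc1a3 among them. Others of the list also had their highest mean in GFP+-RPE. Cp had means of 42.5, 1.39 and 0.0841 CPM in GFP+-RPE, peripheral and central GFP–-RPE. It ranged from 0.0477 to 175 CPM across the GFP+-RPE libraries. Against peripheral GFP–-RPE its log2 fold change was 4.99 (SE 1.61, edgeR's unadjusted p = 0.00707 and adjusted p = 0.629). Vim had means of 166, 33.7 and 74.9 CPM in the same order of groups. The summed level, most of it from Rlbp1, Apoe and Glul, which were high in every group, ran from 6862 to 8278 CPM in GFP+-RPE, from 5754 to 9711 in peripheral and from 6066 to 11765 in central GFP–-RPE. Their part in the Dkk3 result was not tested.

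The remaining inhibitors among the members were nearly silent. Sfrp4 reached 116 counts in 1 peripheral GFP–-RPE library and was at 0 in GFP+-RPE. Dkk2 had at most 8 counts, Wif1 at most 5, Dkk1 at most 2 and Sfrp2 at most 1. Of the R-spondins, agonists that protect Frizzled receptors from removal, Rspo2 had 172 counts in the peripheral GFP–-RPE library of mouse 2 (8.91 CPM), 2 counts in that of mouse 5, 0 in the other 3, none in GFP+-RPE and at most 5 in central GFP–-RPE. Rspo1, Rspo3 and Rspo4 never exceeded 2 counts.

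Inside the cell, Ctnnb1, which encodes beta-catenin, was at similar means in the 2 peripheral groups. It ranged from 82.1 to 296 CPM in GFP+-RPE with a median of 191, and was 221, 259, 209, 186 and 103 CPM in the peripheral GFP–-RPE libraries of mice 1, 2, 4, 5 and 7. In central GFP–-RPE it ranged from 2.39 to 238 CPM with a median of 187. The central libraries of mice 4 and 7 stood far below the rest, with 24 and 158 counts, and both belong to the libraries with few genes. GFP+-RPE against peripheral GFP–-RPE gave a log2 fold change of 0.02 (SE 0.32), whose sign turned in 5 of 17 alternatives, and against central GFP–-RPE it was 0.36 (SE 0.69), or −0.015 without the central libraries of mice 4, 5 and 7.

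Axin2, a scaffold of the destruction complex and itself a widely used target of beta-catenin, was low. It ranged from 1.59 to 20.0 CPM in GFP+-RPE with a median of 5.07, and from 0 to 8.08 CPM in central GFP–-RPE with a median of 2.52. Peripheral GFP–-RPE held 2.90, 3.58, 5.15, 8.02 and 8.50 CPM in mice 1, 2, 4, 5 and 7. The groups overlapped, and none of the Axin2 log2 fold changes (1.07 ± 1.31 SE, 0.33 ± 1.06 SE and 0.76 ± 1.40 SE for GFP+-RPE against central, GFP+-RPE against peripheral and peripheral against central GFP–-RPE) passed edgeR's test. Axin1, the other scaffold, had means of 8.98, 13.9 and 1.18 CPM in GFP+-RPE, peripheral and central GFP–-RPE, and its log2 fold change for peripheral against central GFP–-RPE was 3.51 (SE 1.71, edgeR's unadjusted p = 0.0559), or 2.53 without the central libraries of mice 4, 5 and 7.

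Tcf7l2 was the prevailing TCF/LEF factor by mean, with 89.3%, 76.3% and 87.2% of their summed per-kilobase level in GFP+-RPE, peripheral and central GFP–-RPE. Its lowest shares in a library were 68.7%, 28.5% and 57.2% in the same order. It ranged from 8.39 to 38.6 CPM in GFP+-RPE with a median of 15.3, and from 13.0 to 60.8 CPM in central GFP–-RPE with a median of 17.4. In peripheral GFP–-RPE it was 14.2, 9.59, 26.2, 40.3 and 22.2 CPM in mice 1, 2, 4, 5 and 7, and all groups overlapped. Tcf7l1 had means of 1.01 to 2.27 CPM. Lef1 had 141 counts in the peripheral GFP–-RPE library of mouse 4 and at most 2 counts in any other library, and Tcf7 reached 95 counts in 1 peripheral GFP–-RPE library.

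**Figure D3:**
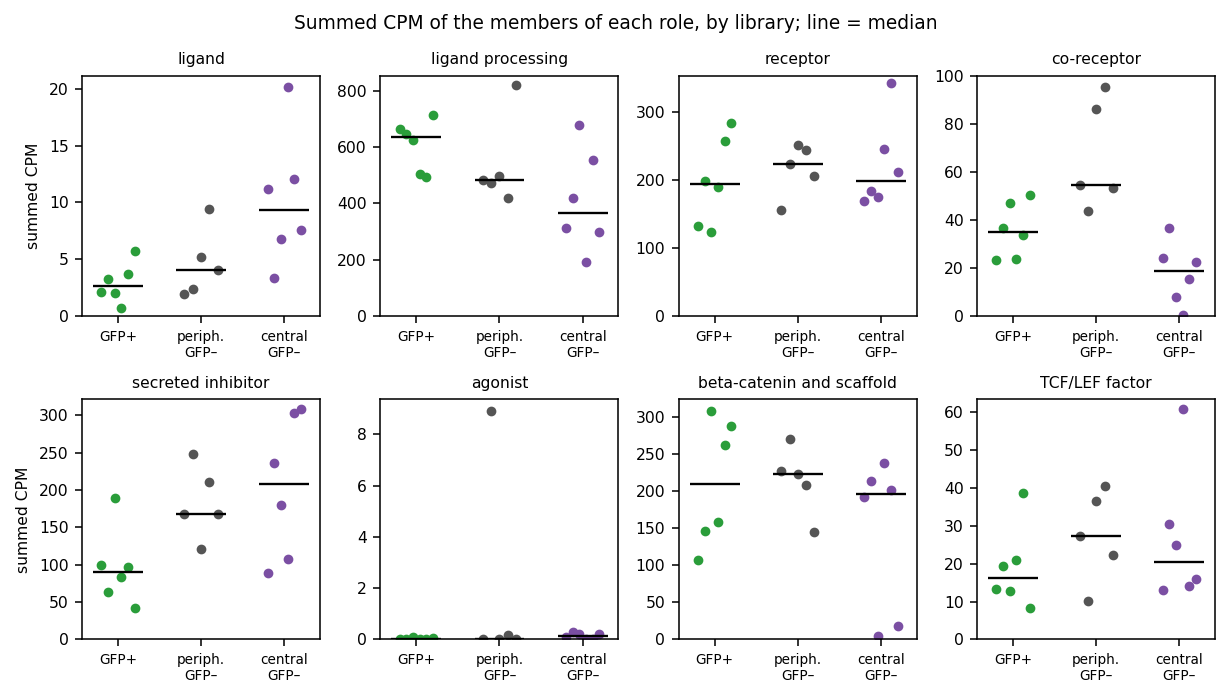
Summed CPM of the genes of each role in each library of GFP+-RPE, peripheral GFP–-RPE and central GFP–-RPE, with the median as a line. The ligand sums reach at most 20.1 CPM, whereas the sums of ligand processing lie between 193 and 820 CPM.

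Counted over the pathway, GFP+-RPE against central GFP–-RPE called 0 of the 17 members tested, against 0.0431% of all 9286 genes tested. An unadjusted p under 0.05 was reached by 1 member that was higher (Wls) and 2 that were lower (Sfrp1 and Wnt4), against 2.14% and 3.66% of all genes. Of 23 members with a mean of at least 10 counts in 1 of the groups, 0 were separately higher and 1 was separately lower (Wnt4), against 0.688% and 0.348% of 12068 genes. The median log2 fold change was 0.34 over the 17 members and 0.00067 over all genes tested. DESeq2 called 2 of the 40 members it tested here (Dkk3 and Wnt4), against 1.24% of all 16656 genes. Since Dkk3 had counts in this comparison only in GFP+-RPE, no support is drawn from its call.

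GFP+-RPE against peripheral GFP–-RPE, both from the peripheral part of the eyecup, called 0 of 20 members, against 0.0396% of all 10102 genes tested. Since the paper found GFP mainly in the dorsal far periphery, position within that part and GFP cannot be told apart here. An unadjusted p under 0.05 was reached by 1 member that was higher (Fzd1) and 2 that were lower (Sfrp1 and Lrp6), against 2.75% and 2.83% of all genes. Of 27 members over the floor of 10 counts, 0 were separately higher or lower, against 0.522% and 0.704% of 12078 genes. The median log2 fold change was −0.28 over the 20 members and 0.01 over all genes. DESeq2 called 0 of 36 members, against 0.4% of all 16509 genes.

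Peripheral against central GFP–-RPE, which compares regions among cells without GFP, called 0 of 17 members and 0.0% of all 9535 genes tested. No member reached an unadjusted p under 0.05 in edgeR, against 1.03% of all genes higher and 1.67% lower, and DESeq2 called 0 of 39 members against 0.169% of all 17130 genes and gave an unadjusted p under 0.05 for 5 members against 5.18% of all genes. Of 26 members over the floor, 1 was separately higher (Lrp6) and 0 were separately lower, against 0.524% and 0.0998% of 12025 genes. The median log2 fold change was 0.38 over the 17 members and 0.01 over all genes. The 3 comparisons share their libraries in pairs and are not independent of each other.

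**Figure D4:**
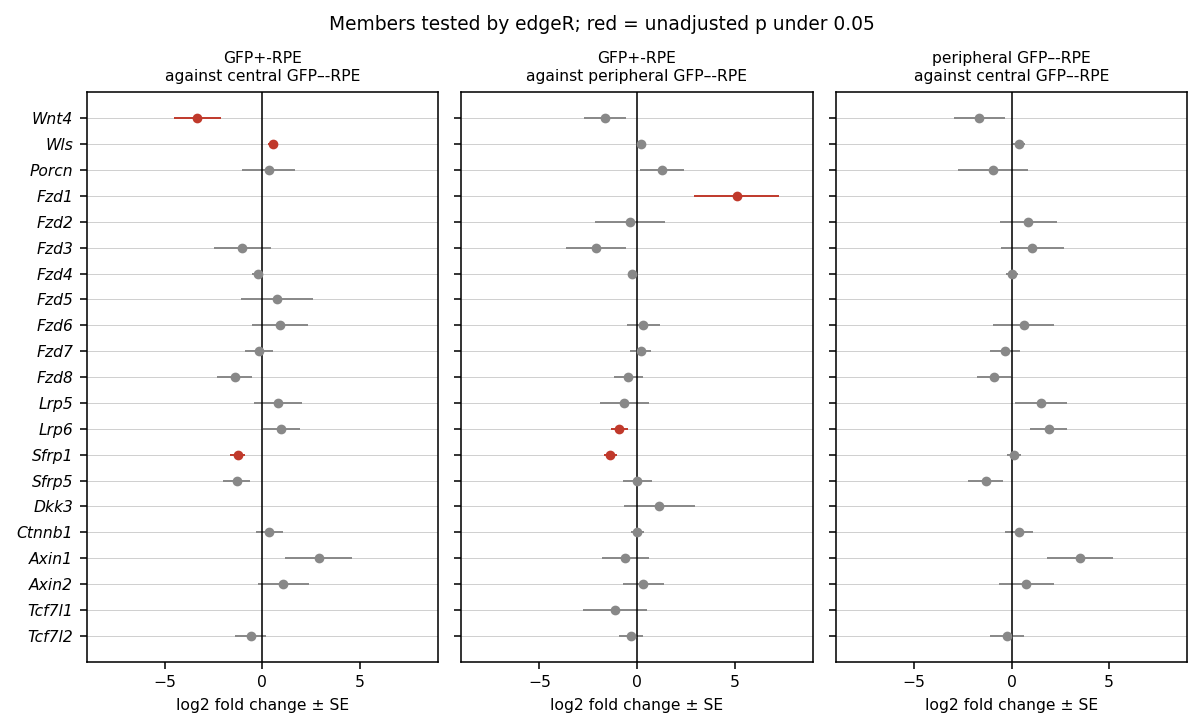
Log2 fold change with its SE from edgeR for each member tested in the 3 comparisons (panels), with red for an unadjusted p under 0.05 and grey for the rest. Red points are Wnt4, Wls and Sfrp1 for GFP+-RPE against central GFP–-RPE, and Fzd1, Lrp6 and Sfrp1 for GFP+-RPE against peripheral GFP–-RPE.

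Other parts of the pathway were read from lists that were written by hand. Of 15 other receptors and co-receptors, 5 were tested in each comparison and 0 were called. Gpc3, a glypican that binds Wnt ligands at the cell surface, averaged 396 ± 146 CPM in GFP+-RPE (SD, n = 6), 185 ± 58.8 CPM in peripheral GFP–-RPE (SD, n = 5) and 129 ± 79.8 CPM in the centre (SD, n = 6), with a log2 fold change of 1.59 (SE 0.38) against central and 1.12 (SE 0.28) against peripheral GFP–-RPE (edgeR's adjusted p = 0.0744 and 0.385). Without the central libraries of mice 4, 5 and 7 the former was 1.99 (adjusted p = 0.0545). Of 15 other modulators 0 were called, and Sostdc1, a secreted Wnt and BMP inhibitor, had 328 CPM in GFP+-RPE against 154 CPM in central GFP–-RPE (log2 fold change 1.01, SE 0.40, edgeR's adjusted p = 0.604, or 1.57 without those 3 libraries).

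Of 20 genes of cytoplasmic signal transduction, 16 or 17 were tested and 0 were called. Gsk3b, the kinase that marks beta-catenin for destruction, averaged 140 ± 38.6 CPM in GFP+-RPE (SD, n = 6), 257 ± 88.4 CPM in peripheral GFP–-RPE (SD, n = 5) and 378 ± 317 CPM in the centre (SD, n = 6), with a log2 fold change of −0.87 (SE 0.26) against peripheral and −1.59 (SE 0.43) against central GFP–-RPE (edgeR's adjusted p = 0.562 and 0.131). Without the central libraries of mice 4, 5 and 7 the latter was −0.62 (unadjusted p = 0.0321). Amer1 and Tnks2, which act on beta-catenin and Axin, also had an unadjusted p under 0.05 and lower values in GFP+-RPE than in peripheral GFP–-RPE, with log2 fold changes of −1.23 (SE 0.29) and −1.07 (SE 0.36).

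Of 15 nuclear cofactors and 13 genes of the planar cell polarity branch 0 were called, with an unadjusted p under 0.05 for Pygo1, Tle4 and no polarity gene. Of 22 reported targets of beta-catenin, 9 or 10 were tested and 0 were called. Ccnd1, which drives entry into the cell cycle, had means of 168, 157 and 190 CPM in GFP+-RPE, peripheral and central GFP–-RPE, and Myc had 1 count in all. Id2, an inhibitor of differentiation factors, had 124 CPM in GFP+-RPE against 254 CPM in peripheral GFP–-RPE (log2 fold change −1.03, SE 0.28, edgeR's adjusted p = 0.440), and Dct, a pigment enzyme, had 678 CPM against 365 CPM in central GFP–-RPE (log2 fold change 0.84, SE 0.38, edgeR's adjusted p = 0.780, or 0.31 without the central libraries of mice 4, 5 and 7). The medians of these lists lay between −0.49 and 0.62 on the log2 scale in the 3 comparisons.

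Markers of other cell types were examined in the same libraries. Summed levels of 20 rod and cone genes were 89.4 to 186 CPM in GFP+-RPE, 108 to 176 in peripheral and 122 to 304 in central GFP–-RPE, with Rcvrn at 0 in each group. Summed levels of 17 ciliary and iris genes were 723 to 1066, 848 to 1050 and 724 to 1449 CPM in the same order, with Optc, Wfdc1 and Zic2 at 0 in every library, and those of 9 melanocyte genes 118 to 217, 90.4 to 219 and 113 to 416 CPM. Summed levels were 7.97 to 27.0, 1.27 to 26.1 and 0.333 to 17.4 CPM for 14 endothelial genes with Cldn5 at 0 in every library, 155 to 541, 119 to 244 and 2.22 to 327 CPM for 14 stromal genes with Dpt and Mgp at 0, 56.9 to 137, 134 to 183 and 97.8 to 165 CPM for 14 macrophage genes with C1qa, C1qb, Lyz2 and Tyrobp at 0, and 744 to 1151, 456 to 650 and 317 to 1474 CPM for 8 lens genes with Crybb2, Crygc and Crygs at 0. Of all marker genes 1 was called, namely Vim, of the Mueller glia list, which was higher in GFP+-RPE than in peripheral GFP–-RPE (166 against 33.7 CPM, log2 fold change 2.33, SE 0.30, edgeR's adjusted p = 0.00392).

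Other marker genes had an unadjusted p under 0.05 without being called. Lower in GFP+-RPE than in the centre, and in the same order of the 3 groups as Wnt4, were Pde6a of the rod and cone list with 5.96, 12.6 and 45.2 CPM in GFP+-RPE, peripheral and central GFP–-RPE, Mc1r of the melanocyte list with 3.56, 7.44 and 18.6 CPM, Ccnd2 and Bmp4 of the ciliary and iris list with 2.80, 14.1 and 31.2 CPM and with 256, 284 and 453 CPM, and the RPE genes Lrat (1054, 1669 and 1757 CPM) and Rpe65 (5024, 7080 and 8327 CPM). Of the other expressed rod and cone genes, Rom1 had the same order with 85.3, 106 and 146 CPM. The means had the reverse order with 26.9, 25.02 and 20.9 CPM for Gnat2 and 9.74, 4.12 and 2.64 CPM for Pdc. Within GFP+-RPE, Pdc was at 0 in 4 libraries and reached 57.1 CPM in the highest, and Gnat2 ranged from 4.98 to 63.1 CPM. With the central libraries of mice 4, 5 and 7 left out, the log2 fold changes were −1.51 for Pde6a, −1.04 for Mc1r, −2.26 for Ccnd2, −0.48 for Bmp4, −0.76 for Lrat and −0.46 for Rpe65, and of these 6 only that of Lrat kept an unadjusted p under 0.05 (0.00897). The RPE genes Itgav and Mertk were also lower in GFP+-RPE than in the centre, by log2 fold changes of −0.63 and −0.87, and Vim was higher by 1.12, or −0.54, −0.68 and 1.52 without those libraries.

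Against peripheral GFP–-RPE, Csf1r of the macrophage list was lower in GFP+-RPE, as Sfrp1 was, with 59.9 against 122 CPM (log2 fold change −1.01, SE 0.30, edgeR's unadjusted p = 0.00373 and adjusted p = 0.562), and so were the RPE genes Lrat and Itgav, by log2 fold changes of −0.65 each. Higher in GFP+-RPE were Acta2 of the stromal list with 319 against 173 CPM (edgeR's unadjusted p = 0.0159), Cryab of the lens list with 926 against 522 CPM (edgeR's unadjusted p = 0.000386) and Cp, given above. In peripheral against central GFP–-RPE, Mertk, Pde6a, Bmp4 and Vim were lower at an unadjusted p under 0.05 of edgeR. The part of any of these markers in the results for Wnt4, Sfrp1 and Lrp6 was not tested.

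In GENCODE M21 (GRCm38), Wnt4 lies on the plus strand of chromosome 4 at 137277489-137299726, Wls on the plus strand of chromosome 3 at 159839672-159938664, Sfrp1 on the plus strand of chromosome 8 at 23411502-23449632, Lrp6 on the minus strand of chromosome 6 at 134446476-134566965, Fzd1 on the minus strand of chromosome 5 at 4753839-4758035 and Dkk3 on the minus strand of chromosome 7 at 112116017-112159057. All 6 are protein-coding genes whose exons overlap no other gene. Exons of Ctnnb1 overlap Ulk4 and those of Axin2 overlap Gm11670, both on the opposite strand, so that their reads cannot be told apart where counting did not use strand. The same holds for genes on the opposite strand of Fzd5, Fzd6, Lef1, Tcf7l1, Wnt5a, Wnt7b, Wnt11, Sfrp2, Rspo3 and Notum, and Ctnnb1 also overlaps Mir7090 on its own strand.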

How the data were processed

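The authors deposited estimated counts per gene symbol as whole numbers, without normalization, for 17 SMART-Seq libraries. The submitters' processing notes name fastp, Salmon and GRCm38.p6; the use of strand is not given in the sources used here. All 17 columns were matched to samples by name and 0 were left unused. Libraries were grouped by their labels. The members, lists and tests were chosen with earlier results of these data known.

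CPM are TMM-scaled over the 17 libraries together. Groups were compared with edgeR (version 4.0.16, R version 4.3.3) by the quasi-likelihood test, with TMM, and the default filter on low counts, on the libraries of both groups only, and p-values were adjusted by Benjamini-Hochberg over all genes tested. The SE is the absolute log2 fold change divided by the square root of F. Single genes were also compared by two-sided exact permutation tests, adjusted over all genes with a mean of at least 10 counts in 1 of the groups. The procedure was tested on simulated data.

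Every member is named. Values by library are given for members with an unadjusted p under 0.05, with separate ranges, or central to their role (Fzd4, Rspo2, Ctnnb1, Axin2, Lef1 and Tcf7l2 among them); Dkk3, Sfrp5 and Porcn were added after their values were seen. Alternatives were DESeq2 (version 1.42.0), size factors by median of ratios, no filter, all 3 groups in the fit, the run of animal numbers (mice 1 to 3 against mice 4 to 7) as a covariate, a replicate block for the animal, CPM without TMM, no floor of 10 counts for separate ranges, and each library left out. Leaving out the central libraries of mice 4, 5 and 7, and single libraries for the fold bounds of Dkk3, was chosen after seeing the data. Marker genes were named by an unadjusted p under 0.05, and Rom1, Gnat2 and Pdc after their values were seen. By the labels, libraries of 1 mouse number come from the same animal. Over 15 pairs the correlation of their deviations from the group means was −0.0201 to 0.0973. Mice 3 and 6 give no information on a contrast in the blocked fits in which they have 1 library. No library was a copy of another (highest correlation 0.924 over 136 pairs). PCR copies were counted, so that floors cover counting error only. In GENCODE M21, 21853 of 22253 symbols were found, and all 54 members.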

Additional observations from a re-analysis of the deposited data

Results flagged for a closer look

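Of 40 groups of libraries of the members described by library, 6 held a library far from the others of its group by Dixon's test. The test's chance rate of about 1 in 20 assumes normal values. It does not hold for groups mostly at 0, where a single library with counts is always flagged, so the 6 cannot be set against it. Wls was at 820 CPM in the peripheral GFP–-RPE library of mouse 7, where the other 4 lay between 405 and 493. The same library had Sfrp5 at 0.494 CPM, 5 counts, where the other 4 lay between 26.2 and 48.2. Rspo2 was at 8.91 CPM, 172 counts, in the peripheral GFP–-RPE library of mouse 2, where the others lay between 0 and 0.159. Lef1 was at 6.79 CPM, 141 counts, in the peripheral GFP–-RPE library of mouse 4, where the others lay between 0 and 0.104. In groups otherwise at 0, Fzd1 was at 0.330 CPM, 6 counts, in the central GFP–-RPE library of mouse 2, and Lef1 was at 0.0704 CPM, 1 count, in the GFP+-RPE library of mouse 5. The causes were not tested.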

How the results depend on the processing

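Over 32 log2 fold changes of single members, 569 alternative fits gave 538 with the same direction and the same side of the threshold, 1 call that the edgeR fit lacked (Wnt4 with DESeq2, log2 fold change −3.36), 0 lost calls and 30 turned signs, none of them of a called member. DESeq2 called 2 members in GFP+-RPE against central GFP–-RPE, namely Wnt4 and Dkk3, where edgeR called 0. The call of Dkk3, at 0 in each central library, is not used as support. The animal as a replicate block paired the libraries and called 0 members in each comparison; Sfrp1 then had a log2 fold change of −1.44 against central (unadjusted p = 0.0103) and −1.67 against peripheral GFP–-RPE (unadjusted p = 0.000282), Wnt4 had −3.33 against central GFP–-RPE with an unadjusted p = 0.0609 in place of 0.0136, and Ctnnb1 for GFP+-RPE against peripheral GFP–-RPE turned to −0.22 and Porcn for peripheral against central GFP–-RPE to 0.61.

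Members with an unadjusted p under 0.05 numbered 3, 3 and 0 in GFP+-RPE against central, GFP+-RPE against peripheral and peripheral against central GFP–-RPE. Without the filter they numbered 13 of 43, 12 of 42 and 9 of 46 members tested, against 20.1%, 13.2% and 11.1% of all genes in those fits, most of them with counts in few libraries and without Wnt4 in the first comparison and Lrp6 in the second, and with DESeq2 4 of 40, 5 of 36 and 5 of 39, against 10.0%, 7.83% and 5.18% of all genes. With all 3 groups in the fit they numbered 1 in the comparison of GFP+-RPE with peripheral GFP–-RPE and 3 in that of peripheral with central GFP–-RPE. With the run as a covariate the former was 1, Sfrp1. Without central mice 4, 5 and 7 the 3 members of the first comparison were Dkk3, Sfrp1 and Wls, and not Wnt4. Of these, Dkk3 passed the filter only through its GFP+-RPE counts. With 1 library left out the counts ranged from 2 to 4, 1 to 3 and 0 to 1. In GFP+-RPE against peripheral GFP–-RPE only Sfrp1 remained without GFP+-RPE of mouse 1, 4 or 5 or without peripheral GFP–-RPE of mouse 1, 4 or 5. In peripheral against central GFP–-RPE the 1 member was Lrp6 without central mouse 2 or 5 or without central mice 4, 5 and 7 together, and Axin1 without central mouse 6.

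Members with separate ranges numbered 1, 0 and 1, and from 1 to 2, 0 to 1 and 1 to 2 with 1 library left out. Sfrp1 joined Wnt4 without GFP+-RPE of mouse 3 and Dkk3 without that of mouse 7. In GFP+-RPE against peripheral GFP–-RPE, Sfrp1 was the 1 member without GFP+-RPE of mouse 3 or peripheral mouse 4, and Porcn without peripheral mouse 5. In peripheral against central GFP–-RPE, Axin1 joined Lrp6 without peripheral mouse 1 or central mouse 6. Without TMM scaling the first number was 2, with Wls beside Wnt4.

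Signs of small log2 fold changes turned as follows, none of them called. With 1 library left out, Tcf7l2 ranged from −0.97 to 0.0031 in GFP+-RPE against central GFP–-RPE. In GFP+-RPE against peripheral GFP–-RPE, Sfrp5 ranged from −0.29 to 0.26, Ctnnb1 from −0.15 to 0.17, Axin2 from −0.34 to 0.53 and Tcf7l2 from −0.70 to 0.042. In peripheral against central GFP–-RPE, Porcn ranged from −1.58 to 0.083, Fzd4 from −0.048 to 0.12, Sfrp1 from −0.0034 to 0.28 and Tcf7l2 from −0.58 to 0.35. Without central mice 4, 5 and 7, GFP+-RPE against central GFP–-RPE gave −0.015 for Ctnnb1 and 0.011 for Tcf7l2, and peripheral against central gave −0.036 for Ctnnb1, −0.039 for Axin2 and 0.33 for Tcf7l2. The run as a covariate gave −0.56 for Dkk3 in GFP+-RPE against peripheral GFP–-RPE, and size factors by median of ratios gave −0.0029 for Fzd4 in peripheral against central GFP–-RPE. The causes were not tested. At this depth, 26 of the 54 members had a mean under 10 counts in each group, and a count of 0 allows up to 0.554 CPM in the library of lowest effective depth.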
